A study of Mus musculus with 4 samples.

Results

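The cells described here are bone marrow stem and progenitor cells that carried transcripts of Pf4 (platelet factor 4), a chemokine that megakaryocytes pack into platelet alpha granules. They were chosen from 4 single-cell libraries as cells with at least 500 UMIs (unique molecular identifiers, 1 per captured transcript), at most 20% mitochondrially encoded UMIs, at least 3 Pf4 UMIs and no UMI of Dntt, the terminal transferase gene of lymphoid-primed progenitors. The rule selected 205 of the 15421 cells that passed the filter. These 205 cells are called members below. Pf4 and Dntt chose them, so neither gene's level in them is a finding.

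All animals were C57BL/6 mice. The sort took marrow cells without lineage markers that had Sca1 and cKit on their surface (LSK), a gate for stem cells and early progenitors. The 4 groups were mice with chronic myeloid leukaemia (CML) given imatinib, CML mice left untreated, wild-type (WT) mice given imatinib, and WT mice left untreated, with 1 inDrop library each. Imatinib, which blocks the ABL kinase and a few relatives such as KIT, was fed by gavage, 400 mg/kg every alternate day. Its duration is 30 days in one label and 4 weeks in another, and the leukaemia model and the number of mice per library are not given in the sources used here. With 1 library per group no difference was tested, and all intervals are 95% intervals of counting error only.

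Megakaryocytes arise in the marrow from stem cells, partly through progenitors that already transcribe platelet genes while they still lie in the stem cell gate. Such cells are known for the fibrinogen receptor subunit Itga2b (CD41), the thrombin receptor F2r (PAR1), and transcription factors of the GATA and ETS families. Later megakaryocytes add granule cargo such as Pf4 and Ppbp, and the tubulin Tubb1 of the platelet marginal band.

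Pf4 and Ppbp (pro-platelet basic protein, another granule chemokine) lie next to each other on chromosome 5 in mouse, with 2371 bases between the end of Ppbp and the start of Pf4. Their promoters are shown because the members of different libraries held these neighbours in very different proportions, and that of Gp5, a subunit of the receptor for von Willebrand factor, because Gp5 was among the genes that stood highest in untreated members. The sequences are the 200 bases before each start in RefSeq (GRCm38.p6), 5′ to 3′ on the gene's strand. Pf4 is chr5:90772235-90772434 (+), Ppbp is chr5:90768318-90768517 (+) and Gp5 is chr16:30310782-30310981 (-). Capitals mark motif matches on either strand. The GATA motif was searched as AGATAA, and also with T in the first place (TGATAA). The ETS motif was searched as AGGAAG, and also with C in the first place (CGGAAG). The capitals in these windows are their reverse complements.
Pf4: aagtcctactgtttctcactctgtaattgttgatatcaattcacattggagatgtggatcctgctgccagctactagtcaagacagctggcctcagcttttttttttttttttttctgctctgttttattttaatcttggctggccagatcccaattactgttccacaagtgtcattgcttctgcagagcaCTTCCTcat
Ppbp: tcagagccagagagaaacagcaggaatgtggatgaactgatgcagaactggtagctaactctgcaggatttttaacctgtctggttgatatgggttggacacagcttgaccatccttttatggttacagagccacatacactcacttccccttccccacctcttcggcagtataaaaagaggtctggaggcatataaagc
Gp5: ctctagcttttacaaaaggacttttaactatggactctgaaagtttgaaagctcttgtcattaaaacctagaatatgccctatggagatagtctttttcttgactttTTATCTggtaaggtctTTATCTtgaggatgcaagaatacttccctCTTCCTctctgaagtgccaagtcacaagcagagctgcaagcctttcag

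Gp5 had 2 GATA matches and 1 ETS match in this window, Pf4 had 1 ETS match, which began 9 bases before the start, and Ppbp had neither motif. Of the 32851 promoters in the table, 13.2% held a GATA match, 33.9% an ETS match and 3.6% both. A match is a description of these letters and not a site.

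Members made up a larger share of the untreated libraries than of the imatinib libraries. They were 5 of 5167 cells in the CML imatinib library (0.0968%, exact binomial interval 0.0314 to 0.226%), 91 of 3032 in CML untreated (3.0%, 2.42 to 3.67%), 29 of 4189 in WT imatinib (0.692%, 0.464 to 0.993%) and 80 of 3033 in WT untreated (2.64%, 2.10 to 3.27%). The intervals of the imatinib libraries do not reach those of the untreated ones, while the intervals of the 2 untreated libraries overlap. The libraries differed in depth as well. All kept cells had a median of 1192, 5161, 1486 and 3636 UMIs in CML imatinib, CML untreated, WT imatinib and WT untreated, and the deposited files begin at 200 UMIs per cell for both imatinib libraries but at 1006 and 1001 for CML untreated and WT untreated.

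Depth was therefore held equal by thinning each cell of at least 1000 UMIs to 1000, which left out 2087 CML imatinib and 1320 WT imatinib cells and none of the others. A Pf4 UMI without Dntt was then present in 0.292% of CML imatinib, 2.70% of CML untreated, 0.802% of WT imatinib and 3.26% of WT untreated cells. Before thinning, a Pf4 UMI was present in 0.552%, 5.94%, 1.39% and 6.13% of the same cells, and both imatinib libraries stayed below both untreated ones at equal depth. The make-up of the libraries differed too: at least 1% of the UMIs came from 8 granulocyte-monocyte progenitor genes (Mpo, Elane, Prtn3, Ctsg, Cebpa, Gfi1, Ms4a3 and Csf3r, called the myeloid list below) in 3600 CML imatinib, 255 CML untreated, 2938 WT imatinib and 307 WT untreated cells. Their part in the shares was not tested.

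Free RNA was judged from T cells, which should lack Pf4. None of 120 T cells of the CML untreated library and none of 85 of the WT untreated library (5 or more UMIs of T cell genes) had a Pf4 UMI, which allows shares of up to 3.03% and 4.25% (exact binomial), against 5.94% and 6.13% of all kept cells. The T cells were shallower, with medians of 2621 and 1855 UMIs against 5161 and 3636 in all kept cells. The imatinib libraries held 4 T cells each, too few for the same reading. Their cells with at least 1% myeloid UMIs had a Pf4 UMI in 13 of 3600 in CML imatinib (0.361%) and 34 of 2938 in WT imatinib (1.16%). All kept cells gave 0.561% and 1.48%. Members are among these myeloid cells, so free RNA was not judged from them. Plasma cells (50 or more UMIs of plasma cell genes) gave 0 of 45 in CML untreated and 3 of 103 in WT untreated (2.91%, 0.605 to 8.28%), 1 of them a member that carried most plasma cell UMIs of the members.

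Within the members, Pf4 ranged from 3 to 7 UMIs per cell in CML imatinib (median 6), from 3 to 112 in CML untreated (median 7), from 3 to 13 in WT imatinib (median 5) and from 3 to 66 in WT untreated (median 7). Cells with 10 or more Pf4 UMIs numbered 0, 34, 4 and 28 in the same order, so the highest cells lay in the untreated libraries, whose cells were also deeper. Members held 49.1%, 89.5%, 80.0% and 86.1% of all Pf4 UMIs of their libraries. The Dntt condition set aside 5 CML untreated and 3 WT untreated cells with 3 or more Pf4 UMIs, and none in the imatinib libraries.

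Just outside the threshold, 5 CML imatinib, 23 CML untreated, 9 WT imatinib and 28 WT untreated cells had 2 Pf4 UMIs and no Dntt. Those just inside, with 3 Pf4 UMIs, numbered 1, 17, 6 and 13. Itga2b and F2r were present on both sides of the threshold in the untreated libraries, and F2r was lower just inside than just outside in both. In CML untreated, Itga2b stood at 254 CPM (counts per 1000000 summed UMIs) with 3 Pf4 UMIs and at 307 CPM with 2, and F2r at 247 and 481 CPM. In WT untreated, Itga2b stood at 534 CPM with 3 Pf4 UMIs and at 277 CPM with 2, and F2r at 213 and 517 CPM.

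**Figure D1:**
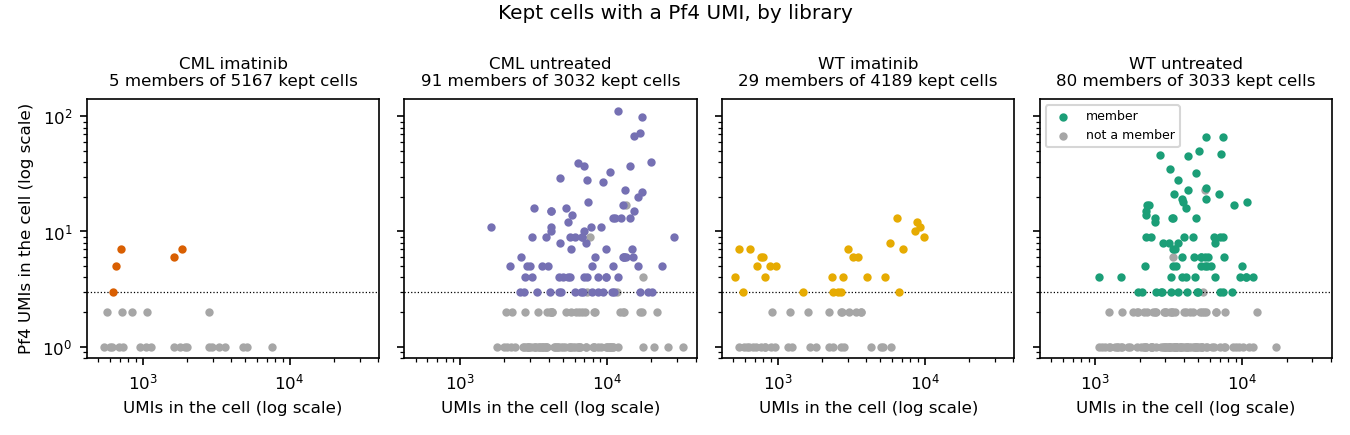
Pf4 UMIs (y axis, log scale) against all UMIs (x axis, log scale) of every kept cell with at least 1 Pf4 UMI, 1 panel per library; coloured points are members, grey points above the dotted line at 3 UMIs carry Dntt. Members of the untreated libraries reach 112 and 66 Pf4 UMIs, while those of the imatinib libraries end at 7 and 13 and fall into a shallow and a deep set in WT imatinib.

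In both untreated libraries the members carried a broad set of megakaryocyte receptors, which the rule did not ask for beyond Pf4. A gene was called when the CPM of the groups differed at least 2-fold, the higher group had at least 50 CPM and 20 UMIs from at least 5 cells, and the interval of the ratio excluded 1. Called genes were 8.95% of 4135 in CML untreated members against the other cells of that library (4.18% higher and 4.76% lower), and 9.28% of 4085 in WT untreated (4.43% and 4.85%). The contrast is set up by the rule's own cells, so nothing is tested here. The same direction was called in both untreated libraries for 183 of 3717 genes (4.92%), 78 higher (2.1%) and 105 lower (2.82%) in members. The 78 include Pf4, by which the members were chosen.

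Of the 10 adhesion receptors, 6 were called higher in members in each untreated library, and none lower. Itga2b, which pairs with Itgb3 to bind fibrinogen, had 447 CPM in CML untreated members and 59.2 CPM in the other cells (log2 ratio 2.92, 2.74 to 3.09), and 454 against 57.5 CPM in WT untreated (2.98, 2.74 to 3.22). It was seen in 74 of 91 and 65 of 80 members. Itgb3 itself had 78.4 against 9.09 CPM in CML untreated and 87.7 against 6.97 CPM in WT untreated. The tetraspanin Cd9 had 568 against 106 CPM and 583 against 107 CPM. Gp5 had 83.3 against 10.4 CPM in CML untreated and 101 against 12.4 CPM in WT untreated, and the TREM-like receptor Treml1 of alpha granules had 77.2 against 5.81 CPM and 95.4 against 6.66 CPM. The median of the tested adhesion receptors was 3.06 and 3.34 on the log2 scale in CML untreated and WT untreated, where all tested genes had medians of 0.07 and 0.08.

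Some other adhesion receptors of platelets were sparse. Gp6, the collagen receptor, had 2 UMIs in CML untreated and 0 in WT untreated members, and Clec1b, the podoplanin receptor CLEC-2, had 5 and 1. Gp1bb, the beta chain of the von Willebrand factor receptor, was seen in 16 of 91 and 20 of 80 members. It had 28 UMIs (34.3 CPM) in CML untreated and 23 UMIs (59.3 CPM) in WT untreated, above the floors of 50 CPM and 20 UMIs in the latter alone. Gp5, a subunit of the same receptor, stood higher, as given above.

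Among the 7 receptors for agonists and cytokines, 3 were called higher in CML untreated and 4 in WT untreated. F2r had 517 CPM in CML untreated members against 117 CPM in other cells (2.15, 2.0 to 2.30) and 529 against 118 CPM in WT untreated (2.17, 1.95 to 2.38). F2rl2 (PAR3, a cofactor of thrombin signalling in mouse platelets) had 72.3 against 4.69 CPM and 82.5 against 4.70 CPM. The ADP receptor P2ry1 was called in WT untreated alone (59.3 against 7.05 CPM), at 31.9 against 7.82 CPM in CML untreated, where it was under the 50 CPM floor. P2ry12, the other platelet ADP receptor, had no UMI in the members of any library. Itga2b and F2r were both seen in 60 of 91 and 54 of 80 members, and 81 of 91 and 68 of 80 showed at least 3 genes of these receptor lists.

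Granule cargo other than Pf4 was uneven. Vwf, the adhesive protein of alpha granules, had 116 against 6.30 CPM in CML untreated (log2 ratio 4.21, 3.81 to 4.6) and 157 against 7.20 CPM in WT untreated (4.45, 3.96 to 4.93), and was seen in 31 of 91 and 29 of 80 members. Serpine2, a thrombin inhibitor, had 83.3 against 15.4 CPM and 74.8 against 13 CPM. The proteoglycan Srgn was abundant everywhere, at 2849 against 3264 CPM and 2821 against 2963 CPM, and was not called. Ppbp stayed low, with 30 UMIs in 7 of 91 CML untreated members (36.8 CPM) and 8 UMIs in 3 of 80 WT untreated members (20.6 CPM).

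Of 10 genes that platelets use to signal and secrete, 5 were called higher in CML untreated members (6 reached the floors) and 6 in WT untreated members (7 reached the floors), and none lower. The pleckstrin gene Plek had 371 against 85.0 CPM in CML untreated and 361 against 85.9 CPM in WT untreated, the integrin-activating GTPase Rap1b 1122 against 240 CPM and 1044 against 204 CPM, and the granule GTPase Rab27b 105 against 12.1 CPM and 90.3 against 10.6 CPM. Of 8 cytoskeletal genes, 5 reached the floors in each library and only Zyx, a focal adhesion protein, was called (255 against 112 CPM and 268 against 121 CPM). Tubb1 had no UMI in members of any of the 4 libraries.

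Of 12 megakaryocyte transcription factors, 8 were called higher in each untreated library, 7 of them in both. Mef2c, a MADS-box factor, had 815 against 253 CPM in CML untreated (log2 ratio 1.69, 1.57 to 1.80) and 676 against 248 CPM in WT untreated (1.45, 1.26 to 1.63), and was seen in 82 of 91 and 64 of 80 members. The ETS factor Fli1 had 518 against 165 CPM and 441 against 149 CPM, and its partner in megakaryocytes Gata1 207 against 68.7 CPM and 204 against 67.6 CPM. The log2 ratio of Gata1 in CML untreated turned to -0.57 when every cell was thinned to 500 UMIs. Zfpm1 (FOG1, the GATA1 cofactor), the repressor Gfi1b and the homeobox factor Meis1 were also among the 7. Tal1 passed in CML untreated alone and Gata2 in WT untreated alone, and Runx1, Nfe2 and Lmo2 passed in neither.

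Of the genes outside these lists called in both untreated libraries, those with the highest ratios were Cavin2 (a caveolar coat protein, 94.4 against 3.47 CPM in CML untreated and 87.7 against 1.64 CPM in WT untreated), Timp3 (a metalloproteinase inhibitor, 196 against 9.28 CPM and 74.8 against 3.84 CPM), Ehd3 (99.3 against 10.7 CPM and 168 against 7.52 CPM) and Slc14a1 (a urea transporter, 390 against 44.9 CPM and 531 against 57.6 CPM). Slc14a1 was among the most widely seen, in 67 of 91 and 62 of 80 members. Mycn, a MYC family factor, had 178 against 36.9 CPM and 186 against 35.4 CPM.

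**Figure D2:**
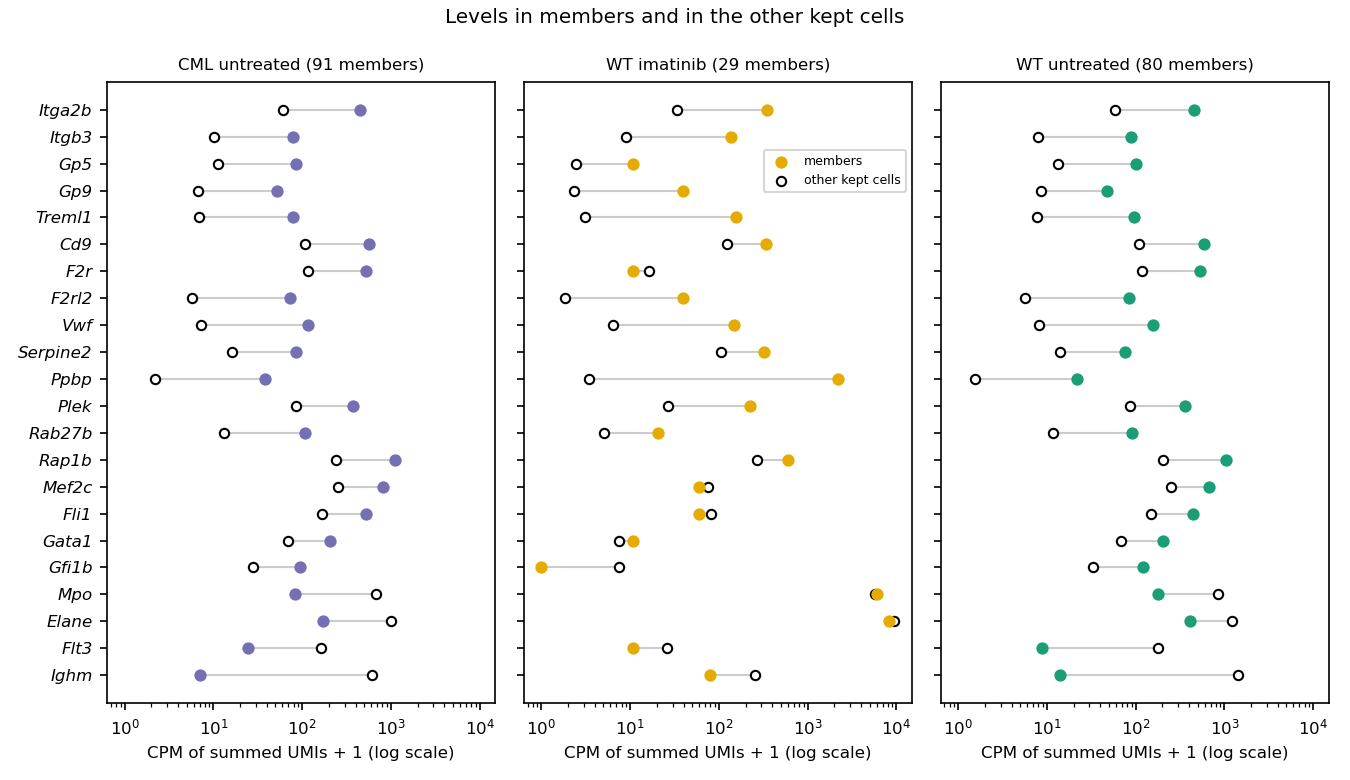
CPM of summed UMIs plus 1 (x axis, log scale) for 22 genes in members (filled) and in the other kept cells (open), in the 3 libraries with at least 20 members. In CML untreated and WT untreated the first 18 genes lie to the right in members and the last 4 to the left, whereas in WT imatinib F2r, Gata1, Fli1 and Mef2c lie close to the other cells and Ppbp reaches 2168 CPM.

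Most genes of the lymphoid-primed, myeloid and monocyte lists that reached the floors were lower in untreated members. Of 7 lymphoid-primed genes, 3 reached the floors in CML untreated, with 2 called lower and 1 higher (Il12a), and 4 did in WT untreated, all called lower. The lymphoid-primed genes Flt3 (a cytokine receptor) and Satb1 (a chromatin organiser) had 23.3 against 163 CPM and 11 against 183 CPM in CML untreated, and 7.74 against 176 CPM for both in WT untreated. Ighm, whose transcript marks early B lineage priming, had 6.13 against 604 CPM and 12.9 against 1412 CPM. Cd34, the sialomucin of short-term progenitors, had 90.7 against 328 CPM and 69.6 against 439 CPM. Of the 8 genes of the myeloid list, 7 and 6 were called lower, with Mpo (myeloperoxidase) at 82.1 against 671 CPM and 175 against 842 CPM. Of 7 monocyte genes, 3 and 6 reached the floors and all of these were called lower.

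Erythroid genes did not move together. Car2, a carbonic anhydrase shared by megakaryocyte and erythroid precursors, had 840 against 707 CPM and 799 against 542 CPM, below the 2-fold limit. Car1, a red cell carbonic anhydrase, was called lower at 24.5 against 217 CPM and 12.9 against 182 CPM, and Klf1, the erythroid master regulator, had 4 UMIs in each set of members. S phase genes gave no call in either library, and neither did the 10 genes of G2 and mitosis.

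Stem cell genes were mixed. Slamf1 (CD150, a stem cell surface receptor) had 49.0 against 15 CPM in CML untreated, just under the floor, and 74.8 against 13.1 CPM in WT untreated, where it was called. Hlf, a stem cell transcription factor, had 58.8 against 91.7 CPM and 10.3 against 75.8 CPM and was called lower in WT untreated. Procr had 0 and 1 UMI. Ly6a, the transcript of the Sca1 antigen used in the sort, had 12.3 against 99.1 CPM in CML untreated and 82.5 against 196 CPM in WT untreated, where 75% of the members' UMIs came from 1 cell. Kit, the other sort antigen, was not called (96.8 against 151 CPM and 106 against 137 CPM).

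Members of the untreated libraries were not uniform, and cells with more Pf4 had more of both receptor lists. From 3 or 4, through 5 to 9, to 10 or more Pf4 UMIs, the summed adhesion receptors stood at 904, 1150 and 1832 CPM in CML untreated and at 968, 1411 and 1998 CPM in WT untreated. The agonist and cytokine receptors stood at 670, 853 and 1035 CPM and at 444, 980 and 1377 CPM. Signalling, transcription factor and cytoskeletal genes did not climb at each step in both libraries. Signalling and secretion genes stood at 2046, 2046 and 3110 CPM in CML untreated and at 1477, 2267 and 3461 CPM in WT untreated, and transcription factors at 4991, 4984 and 5755 CPM and at 3317, 4891 and 5074 CPM. Cytoskeletal genes stood at 966, 955 and 1179 CPM and at 928, 892 and 1298 CPM, lowest in the middle class of both libraries. Ppbp was too sparse to give a direction. In CML untreated it had 1, 4 and 25 UMIs from 1, 1 and 5 cells (4.41, 15.6 and 75.0 CPM), with 14 of the 25 in 1 cell. In WT untreated it had 4, 4 and 0 UMIs from 1, 2 and 0 cells (32.3, 29.2 and 0 CPM). The myeloid list stood at 533, 1381 and 78.0 CPM and at 2502, 972 and 86.5 CPM, so the class with most Pf4 had least of it in both libraries. The lower classes rest on few cells in this: 2 cells with 189 and 138 of its UMIs in the middle class of CML untreated, 3 cells with 173, 62 and 48 in the lowest class of WT untreated, and 1 cell with 122 in its middle class. These classes share the depth of their cells: the median was 6887, 6994 and 9226 UMIs in CML untreated, and 4167, 4958 and 4043 UMIs in WT untreated. In WT untreated the class with most Pf4 was thus not the deepest.

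**Figure D3:**
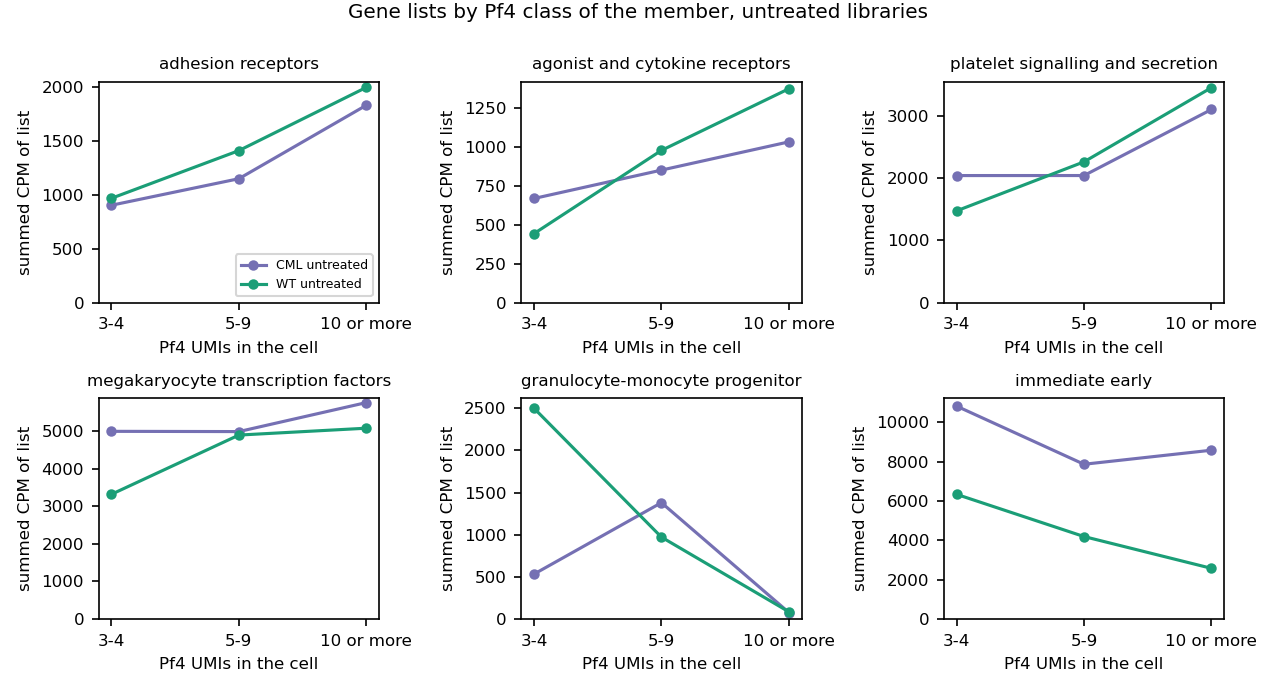
Summed CPM (y axis, from 0) of 6 gene lists in members with 3 to 4, 5 to 9 and 10 or more Pf4 UMIs (x axis), for CML untreated (29, 28 and 34 cells) and WT untreated (24, 28 and 28 cells). Both receptor lists are highest in the last class in both libraries, and the granulocyte-monocyte progenitor list is lowest there.

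CML untreated members were set against WT untreated members to see how leukaemic and normal marrow differ in these cells. This called 341 of 4221 genes (8.08%), 198 higher (4.69%) and 143 lower (3.39%) in CML, and the platelet programme was not among them: none of the 6 megakaryocyte and platelet lists held a called gene. Itga2b differed by -0.02 on the log2 scale (-0.28 to 0.25), F2r by -0.03 (-0.28 to 0.22) and Cd9 by -0.04 (-0.27 to 0.20). The medians were -0.16 for adhesion receptors and 0.11 for transcription factors, beside 0.02 for all tested genes. The other cells, with many more UMIs, gave 32 calls among 3812 genes (0.839%), 19 higher (0.498%) and 13 lower (0.341%).

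Some stress and immediate early genes were higher in CML untreated members, and for several the ratio between the other cells of these libraries is given beside it. Among 9 heat shock genes, 4 were called higher. Hspa1b, an inducible HSP70 chaperone, had 2890 CPM in CML members and 255 CPM in WT members (log2 ratio 3.50, 3.21 to 3.81), with 3.48 between the other cells of these libraries. Hspa1a, its near-identical neighbour whose reads may be split with it, had 531 against 67.0 CPM (2.98, with 2.85 in the other cells), and Hsph1 had 588 against 155 CPM (1.93 and 1.76). Of 15 immediate early genes 6 were called higher, with a median of 1.0 in members and 0.93 in other cells. Jun had 2601 against 1137 CPM, Fos 1269 against 614 CPM, and Dusp1, a phosphatase of MAP kinases, 474 against 152 CPM. Klf2, a quiescence factor of blood cells, had 167 against 25.8 CPM (2.69, 1.77 to 3.79), with 1.29 in the other cells.

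For some genes the ratio in members lay far from that in the other cells, though the difference of the ratios was not tested. Timp3 was not one of them, at 1.39 in members and 1.27 in the other cells. Hlf had 48 against 4 UMIs (2.51, 1.06 to 4.45), with 0.27 between the other cells, but 33.3% of its CML UMIs came from 1 cell. Socs3, a feedback inhibitor of cytokine signalling, had 79.7 against 15.5 CPM (2.36, 1.16 to 3.86), with 0.94 in the other cells. Il12a, a cytokine subunit on the lymphoid-primed list, had 176 against 54.2 CPM (1.70, 1.04 to 2.44), with -0.49 in the other cells. Eya1, Ulbp1 and Fam160b1 had 41, 47 and 44 UMIs in CML members against 3, 4 and 4 in WT members.

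On the lower side, the plasma cell genes Jchain, Igha and Igkc led, and 99.3%, 98.3% and 98.0% of their WT UMIs came from 1 cell. Mecom, a stem cell factor, had 44.1 CPM in CML members against 90.3 CPM in WT members (-1.03, -1.74 to -0.32). Mpo and Elane were lower by 1.09 and 1.23, but for Elane 56.7% of the WT UMIs came from 1 cell, and these genes turned higher under other member settings. With the top cell of the higher library left out for each gene, 146 genes were called, 89 higher and 57 lower. Xist, which is transcribed from the inactive X chromosome of female cells, had 1947 UMIs in CML untreated members and 0 in WT untreated members (log2 ratio at least 8.27 against a floor of 3 UMIs), so sex and disease cannot be told apart in this comparison.

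**Figure D4:**
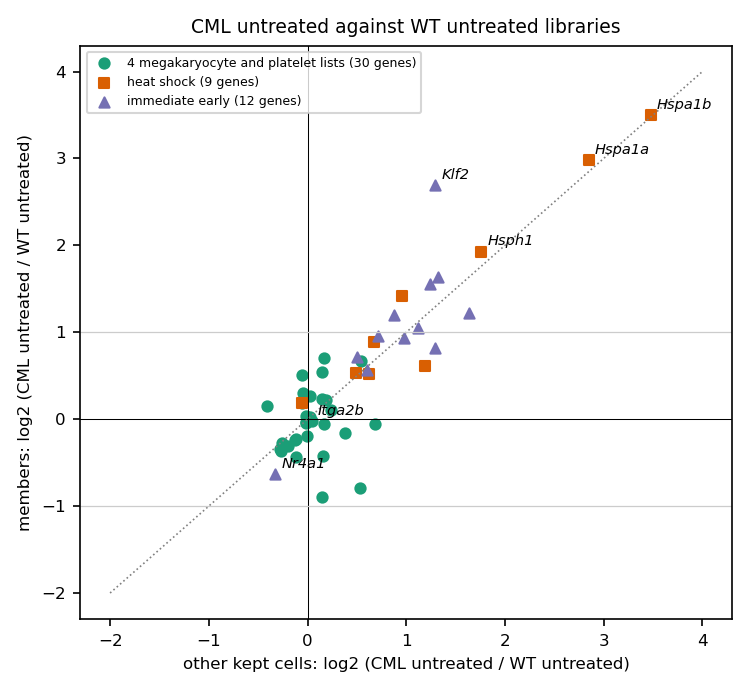
Log2 ratio of CML untreated over WT untreated in members (y axis) and in the other kept cells (x axis) for 30 genes of 4 megakaryocyte and platelet lists, 9 heat shock genes and 12 immediate early genes of at least 50 CPM in either set of members. Platelet genes lie within the grey lines at 1 and -1 in members, Hspa1b and Hspa1a lie far up the dotted line of equality, and Klf2 lies above it.

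In the WT imatinib library the members went against the label. Of 29 members, 18 had at least 1% of their UMIs from the myeloid list. They were the deeper ones, with a median of 4714 UMIs, and held 91.6% of the members' UMIs. The other 11 had a median of 772 UMIs. Called genes against the other cells of the library were 8.97% of 2497, 32 higher (1.28%) and 192 lower (7.69%). Few genes of the lists above reached the floors there: 2 of 10 adhesion receptors did and both were called higher, 5 of 12 transcription factors did and 1 was called higher, and none of the 7 agonist and cytokine receptors did. As a whole these members had Mpo at 6078 CPM and Elane (neutrophil elastase) at 8197 CPM, close to the 5797 and 9477 CPM of the other cells. They had 1 UMI of F2r and of Gata1 and none of Gfi1b or Meis1. The name megakaryocyte-primed therefore does not describe most of them. They are members by the Pf4 rule, and the platelet genes they carried beside Pf4 are given next.

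The 18 myeloid cells were set against the 2920 other cells of that library with at least 1% myeloid UMIs. Levels of Mpo and Prtn3 lay close together, a set of late platelet genes was higher in the 18 cells and the summed CPM of several neutrophil genes was lower. Mpo had 6565 CPM in the 18 cells and 6781 CPM in the 2920, a log2 ratio of -0.05, and Prtn3 had 5053 and 4828 CPM. Called genes were 7.23% of 2366, 27 higher (1.14%) and 144 lower (6.09%). Ppbp had 224 UMIs in 14 of the 18 cells and 16 UMIs in all of the 2920 (2368 against 2.39 CPM, log2 ratio 9.96). Thbs1 (thrombospondin, an adhesive granule protein) had 24 UMIs in each set (6.15), Gp1bb 17 and 2 UMIs, Treml1 16 and 6 UMIs, and Clec1b 6 and 1 UMIs. Itga2b had 22 and 112 UMIs (233 against 16.7 CPM, 3.80) and was called, as were Tpm4, Zyx and Cd9. Pf4 is counted among the 27 higher genes, but the rule chose the 18 cells by it, so its call is not a finding. The called higher genes also included Lig1 (DNA ligase 1, 296 against 140 CPM) and others on none of the megakaryocyte and platelet lists. Among those called lower, the neutrophil calgranulin S100a9 had 74.0 against 868 CPM (-3.55) and its partner S100a8 had 455 against 1396 CPM. S100a9 was seen in 5 of the 18 cells and in 17.3% of the 2920, and S100a8 in 11 of the 18 and in 35.8%. These 2 genes were thus lower in summed CPM but not in the part of cells that carried them. Camp, a granule peptide of neutrophils, had no UMI against 1311 UMIs. Those UMIs came from 4.59% of the 2920 cells, so its absence from 18 cells says little. The 18 cells were deeper than the 2920, with medians of 4714 and 1919 UMIs. This set of cells and this contrast were chosen after their values were seen.

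Ppbp split the members of this library sharply. The 14 cells with Ppbp had 1 to 37 Ppbp UMIs (median 18), 3 to 13 Pf4 UMIs (median 7), 2354 to 9936 UMIs in all and 2.40 to 3.29% myeloid UMIs. The 4 myeloid cells without Ppbp had 3 to 6 Pf4 UMIs and only 1.23 to 1.5% myeloid UMIs, so the sets did not overlap in that share. The 11 cells with under 1% had no Ppbp UMI. They had 14 Itga2b UMIs in 7 of the 11 cells (1604 CPM), under the floor of 20 UMIs. WT untreated members with under 1% had 174 Itga2b UMIs (475 CPM). Those members were deeper (median 4190 UMIs), so the Pf4 rule asked for a smaller share of their UMIs. Pf4 stood at 6302 CPM in the 11 cells and at 2741 CPM in those WT untreated members. F2r had 1 UMI in the 11 cells (115 CPM), against 196 UMIs (536 CPM) in those WT untreated members. Summed over lists, the 11 cells had transcription factors at 4354 CPM, against 4623 CPM in those WT untreated members. Adhesion receptors stood at 3094 against 1533 CPM, and signalling and secretion genes at 3781 against 2476 CPM. Agonist and cytokine receptors stood at 458 against 970 CPM. With 8.45% of the members' UMIs, the 11 cells weigh little in any sum over this library.

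In the untreated libraries the same pairing of Ppbp with myeloid genes was not seen. The 7 CML untreated and 3 WT untreated members with Ppbp had at most 0.256% and 0% myeloid UMIs, and Ppbp ranged from 1 to 14 and from 1 to 4 UMIs. Members of at least 1% numbered 1 and 2 in these libraries, and none of those had a Ppbp UMI.

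**Figure D5:**
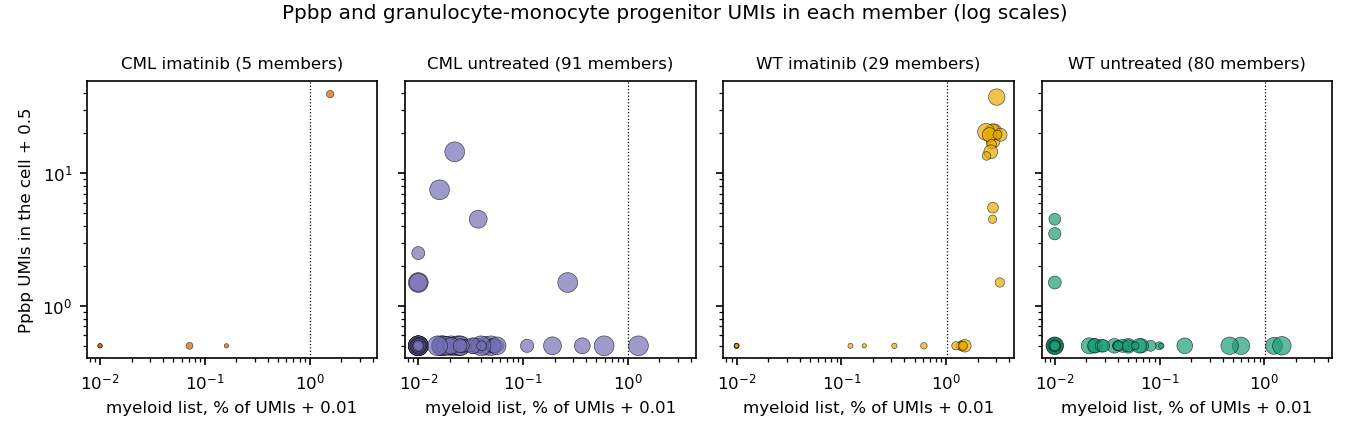
Ppbp UMIs plus 0.5 (y axis, log scale) against the share of UMIs from the granulocyte-monocyte progenitor list plus 0.01 (x axis, %, log scale) for each member, with point area rising with the cell's UMIs; the dotted line marks 1%. The 14 Ppbp-positive members of WT imatinib all lie right of the line, as does the 1 of CML imatinib, while the 7 of CML untreated and 3 of WT untreated lie left of it.

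Set against WT untreated members, the WT imatinib members gave 704 calls among 2862 genes (24.6%), 177 higher (6.18%) and 527 lower (18.4%). This split depends on the floor of 20 UMIs, since members held 103325 UMIs in WT imatinib and 387806 in WT untreated. The higher genes were 25.1% of the calls, and 43.8% with floors of 20 CPM and 10 UMIs. The median log2 ratio was -0.55 over the tested genes and -0.03 over all genes of at least 50 CPM in either group. The other cells of these libraries gave 534 among 4091 (13.1%), 308 higher (7.53%) and 226 lower (5.52%). The largest ratios were Ppbp (2168 against 20.6 CPM, log2 ratio 6.72), the granule protease Prss57 (387 against 5.16 CPM, 6.23), Ly6c2 (465 against 12.9 CPM, 5.17) and Mpo (6078 against 175 CPM, 5.12). F2r was lower by 5.77 and Gata1 by 4.40, each with 1 UMI in WT imatinib against 205 and 79 UMIs. Of 12 megakaryocyte transcription factors 9 were called lower. When members with at least 1% myeloid UMIs were left out of both libraries, 31 genes were called. Only 8727 UMIs of WT imatinib members enter that setting, so fewer genes reach the floor of 20 UMIs, and how many of the 31 were among the 704 was not counted. What imatinib did to megakaryocyte-primed cells cannot be told apart in this sum from which cells the Pf4 rule picked.

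In the 3 libraries with at least 20 members, 18 of 2204 genes (0.817%) were called alike, 8 higher (0.363%) and 10 lower (0.454%) in members. These were 2 higher and 10 lower without the members of at least 1% myeloid UMIs, and 3 higher and 9 lower without members holding 3 or more UMIs of other lineages. Pf4, by which the members were chosen, is counted among the higher genes in each of these settings, and its call is not a finding. With all members kept, the other higher ones included Itga2b, Plek, Serpine2, Cd9, Rap1b and Zyx. Without the myeloid members only 2 genes were higher, Pf4 among them, so most of these were not called there. In WT imatinib the members had Itga2b at 348 against 32.9 CPM, Plek at 223 against 25.4 CPM and Rap1b at 600 against 265 CPM. The 10 lower ones with all members kept were the chemokine receptor Ccr2, Sox4, Ifitm1, Ighm, Anxa2, Ms4a6c, Rgs2, Limd2, Fcer1g and Cd53. Ccr2 had 9.81 against 114 CPM in CML untreated, 19.4 against 98.4 CPM in WT imatinib and 25.8 against 112 CPM in WT untreated.

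The CML imatinib library had 5 members with 5495 UMIs in all, and 1 UMI there is worth more than the 50 CPM floor, so values are given as UMIs. One cell of 1859 UMIs had 39 Ppbp, 23 Treml1, 13 Cd9, 6 Gp1bb, 8 Mpo and 8 Elane UMIs. The other 4, of 632 to 1629 UMIs, had no Ppbp or Elane UMI. Among them were 6 Itga2b UMIs in 2 cells, and no member had an F2r UMI. Against CML untreated, 24 of 338 genes (7.1%) were called, 3 higher (0.888%) and 21 lower (6.21%), and against WT imatinib 32 of 314 (10.2%), 4 higher (1.27%) and 28 lower (8.92%). Scaling by the median of ratios changed these splits to 1 and 131 and to 0 and 106, since it moved all ratios by -0.91 and -0.82. Fos and Xist had no UMI in the 5 cells, against 1035 and 1947 UMIs in CML untreated members. Since Xist comes from female cells, sex may differ between these 2 libraries as well. Sex and imatinib then cannot be told apart in this comparison.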

How the data were processed

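Bone marrow LSK cells of 4 inDrop libraries, 1 per group, were analysed. Per the labels, libraries followed the inDrop instructions; Partek 8.0, Bowtie 1.1.1 and GRCm38 (mm10) are listed in the submitters' processing notes, with no role given. The deposited values are a normalized signal by the authors that sums to about the same total in every cell. Dividing each cell by its smallest nonzero value gave whole UMIs for 100% of entries (tolerance 0.02). Each header has 1 name more than there are value columns, so a cell is a column here, whatever its name. The names of WT untreated and WT imatinib shared 1135 entries (39.6% and 20.4%), other pairs 80 to 340, and no kept column was identical between libraries.

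Kept cells had 500 or more UMIs and at most 20% mitochondrially encoded UMIs. For each gene, CPM were computed from UMIs summed over members and over the other kept cells, and ratios carry exact conditional binomial intervals. A count of 0 was set to 3 for a ratio. No test was made, since each group is 1 library. Doublets were not called; members of high depth, with other-lineage UMIs or with myeloid UMIs were left out as alternatives instead. Named genes were the members of the 6 megakaryocyte and platelet lists, the genes called alike in every library with 20 members (up to 15 higher, 10 lower), the 8 highest and 8 lowest called genes per comparison, and up to 4 per other list; predicted, ribosomal and mitochondrial genes were left out. Naming by both untreated libraries was added after the data were seen, as were 3 settings (calls alike in both untreated libraries, myeloid members left out, and the top cell left out). The members and lists were chosen with earlier results of these data known. Some genes are not reported here. Gene positions are from GENCODE vM21, promoters from RefSeq. Python 3.11.15, numpy 2.4.6, scipy 1.17.1, pandas 2.3.3 and matplotlib 3.10.9 were used. Total UMIs of kept cells were 9557122 (CML imatinib), 21283108 (CML untreated), 8246608 (WT imatinib) and 13157137 (WT untreated).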

Additional observations from a re-analysis of the deposited data

Results flagged for a closer look

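Hspa1b, an inducible HSP70 gene, had opposite signs in the imatinib comparisons of members. Its log2 ratio was -3.99 for CML imatinib over CML untreated, with 1 UMI in the 5 CML imatinib members, and 1.92 for WT imatinib over WT untreated, with 100 against 99 UMIs and 46.5% of the WT untreated UMIs in 1 cell. The difference between these ratios was not tested, and Hspa1a is a near-identical gene.

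Il12a was called in opposite directions in the untreated libraries. Members over other cells gave 1.17 in CML untreated (176 against 78.7 CPM) and -1.02 in WT untreated (54.1 against 110 CPM). The difference was not tested.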

How the results depend on the processing

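No paired analysis was possible because each group is 1 library. Shares of members (CML imatinib, CML untreated, WT imatinib, WT untreated: 0.0968, 3.0, 0.692 and 2.64%) moved as follows. With 2 or more Pf4 UMIs they were 3.76% in CML untreated and 3.56% in WT untreated; with 5 or more, 2.04, 0.406 and 1.85% in CML untreated, WT imatinib and WT untreated; with at least 1000 CPM of Pf4, 1.68 and 1.95% in CML untreated and WT untreated. Without members holding 3 or more other-lineage UMIs, WT imatinib had 0.431% and WT untreated 2.06%; without myeloid members, WT imatinib had 0.264%. Thinned to 1000 UMIs, 1 Pf4 UMI gave 0.292% in CML imatinib, and 3 gave 0.825, 0.0349 and 1.15% in CML untreated, WT imatinib and WT untreated.

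Calls alike in 3 libraries (18) became 10 without members of the highest depth, 39 with the mean of single-cell CPM, 4 with cells thinned to 500 UMIs, and 28 and 9 with floors of 20 and 100 CPM. Calls alike in both untreated libraries (183) became 45 when thinned, and 337 and 96 with these floors. CML untreated against WT untreated (341) gave 32 when thinned, 630 and 80 with these floors and 146 without the top cell. WT imatinib against WT untreated (704) gave 224 without the deepest members, 166 without other-lineage members, 31 without myeloid members, 1217 with mean CPM, 46 when thinned, 347 with 100 CPM and 464 without the top cell. CML imatinib against CML untreated (24) gave 14 from 1000 UMIs, 63 with 2 Pf4 UMIs, 13 without myeloid members, 111 with mean CPM, 11 when thinned and 132 with median scaling. CML imatinib against WT imatinib (32) gave 17 without myeloid members, 121 with mean CPM, 13 when thinned, 106 with median scaling and 19 without the top cell. Thinning leaves fewer UMIs, and the floors change how many genes are eligible; the cause of the other changes was not tested.

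With mean CPM, calls alike in 3 libraries split into 8 higher and 31 lower, and WT imatinib against WT untreated into 172 and 1045. Signs turned in CML untreated over WT untreated for Elane (0.96 with 5 Pf4 UMIs, 4.23 without the deepest members), Mpo (1.95 with 1000 CPM of Pf4, 2.09 without the deepest), Igha (0.064 with 5 Pf4 UMIs) and Ly6a (0.15 without other-lineage members). In WT imatinib over WT untreated they turned without myeloid members for Calr (-1.24), Flna (-0.90), Mycn (0.22), Plac8 (-0.27) and Slc14a1 (0.32), for Flna when thinned (-0.54) and for Ly6a with 5 Pf4 UMIs (0.89). Pf4 itself turned in CML imatinib over WT imatinib without myeloid members (-0.13). Members over others turned for Fcer1g in WT imatinib (0.16 without other-lineage members, 0.0113 when thinned), and when thinned for Gata1 in CML untreated (-0.57) and Aqp1 in WT untreated (-0.0034).

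Limits: 1 library per group, unequal depth, 5 members in CML imatinib, and a rule that picked different cells in WT imatinib.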
